A study of Danio rerio with 12 samples.

Results

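The liver transcriptomes of female and male zebrafish fed a diet with 25% maize were compared. The comparison used 6 of the 12 liver pools of the study, the 3 female pools (replicates 2, 3 and 4) and the 3 male pools (replicates 1, 2 and 3) of that diet, chosen by the sex, diet and replicate number that the labels of each two-colour array give. The other 6 pools came from females (replicates 1, 2 and 3) and males (replicates 1, 3 and 4) fed 0% maize. In these diets maize took the place of wheat, so that the 0% maize diet held 25% wheat and the 25% maize diet held none. All fish were adult wild type of the AB strain, were kept at the same temperature, received their diet together with Artemia for 28 days, and had their livers pooled by sex, with 10 females and 10 males in a replicate. The study names 4 replicates per diet, of which the arrays hold 3 pools of each sex. A female and a male pool of 1 diet with 1 replicate number came from fish of the same tank, so that on 25% maize the sexes shared replicates 2 and 3, while female replicate 4 and male replicate 1 had no partner. Each pool averages many fish, so the p-values below measure the spread between pools and not between single animals.

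In egg-laying vertebrates the liver is a reproductive organ of the female. Estradiol from the ovary acts through estrogen receptor alpha in hepatocytes, which then make vitellogenins, large phospholipoproteins that pass through the endoplasmic reticulum, enter the blood and are taken up by growing oocytes as yolk. Male hepatocytes carry the same genes and keep them nearly silent, and livers of both sexes make the plasma proteins, bile acids and metabolic enzymes of the body.

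No array held a female and a male pool of 25% maize. Of the 12 arrays, 5 set a 25% maize female pool against a 0% maize male pool, 5 set a 25% maize male pool against a 0% maize female pool, and the other 2 linked the diets within females and within males. The sex difference was therefore solved through the whole loop of arrays, as the log2 level in females minus that in males, with a median standard error of 0.161 over genes. Pool levels are given as log2 values relative to the mean of the 12 pools, for females in the order of replicates 2, 3 and 4 and for males in the order of replicates 1, 2 and 3. The differences given beside them come from the model fitted to all 12 arrays. They can therefore depart somewhat from the difference between the mean pool levels of the sexes. The data are ratios, which hold no level of a gene within a pool, so the labelled tissue could be checked only through differences between pools. The direction of the deposited ratio is not given in the sources used here. It is called likely to be Cy5 over Cy3, because all 470 values of 47 vitellogenin probes on the 10 arrays with both sexes had the sign which that direction gives for females above males, so the direction of the vitellogenins is no finding of its own.

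Of 6684 genes measured, 1561 (23.4%) were higher in females and 1102 (16.5%) were lower at an adjusted p below 0.05. The differences were large at the top. A log2 difference of at least 1 was reached by 543 of the higher and 238 of the lower genes, and one of at least 2 by 146 and 31. Over all genes the median difference was 0.05. The levels of all 3 female pools lay above those of all 3 male pools for 2342 genes (35.0%) and below them for 1767 genes (26.4%), and 31 called genes had pools that overlapped. By single probes, 4743 of 12275 (38.6%) passed, and of the 1121 called genes with several probes, 37 had probes of both signs. With 3 pools against 3 an exact test of a single gene cannot give a p below 0.1, so that the calls rest on limma's moderated test across all genes.

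**Figure D1:**
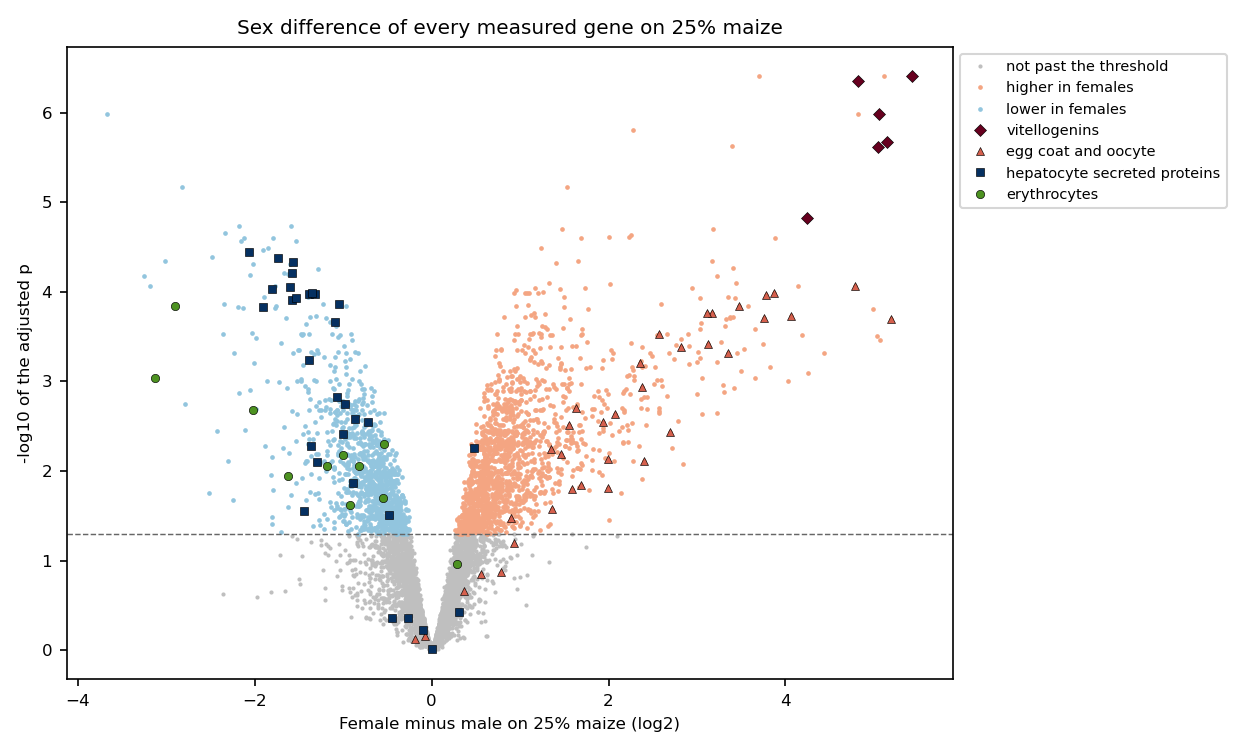
Female minus male log2 difference of each of the 6684 genes on 25% maize (x axis) against the -log10 of its adjusted p (y axis), with members of 4 gene lists marked and the threshold of 0.05 as a dashed line. The vitellogenins and most egg coat and oocyte genes lie far to the right, and the hepatocyte secreted proteins and erythrocyte genes lie mostly to the left.

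The count depended on which pools were in the loop. With the tank as a fixed block, which leaves the comparison within replicates 2 and 3 as its main source, 1628 genes passed. With only tanks 2 and 3 kept on 25% maize 116 genes passed, with a median standard error of 0.28. Without male replicate 1 of the 0% diet 210 genes passed, without female replicate 1 of that diet 278, without female replicate 4 of the 25% diet 361 and without male replicate 3 of the 25% diet 409. These 4 pools are those on the 2 arrays that link the diets within a sex, and leaving out either linking array alone gave 522 (females) and 485 (males), with a median standard error of 0.255 and 0.255. Without male replicate 1 of the 25% diet 818 genes passed and without female replicate 2 of it 1274. The sign of the difference was kept by at least 2659 of the 2663 called genes in each fit that left out a pool or a linking array. These genes were picked as called in the full fit and the fits share most arrays, so that the kept signs add little support.

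**Figure D2:**
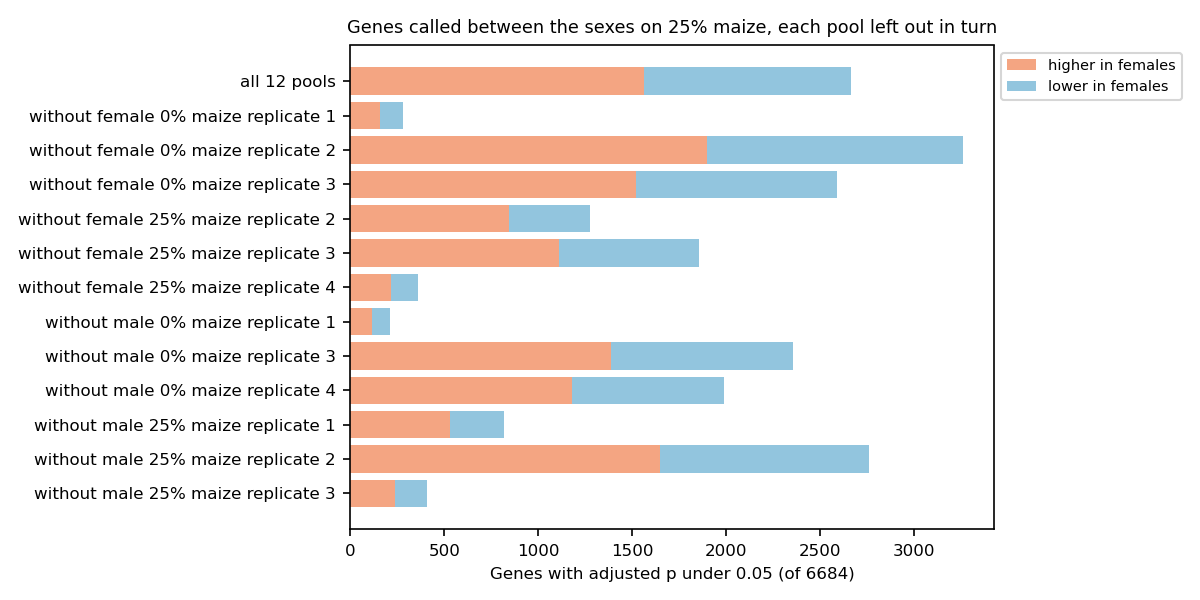
Number of genes higher and lower in females on 25% maize at an adjusted p below 0.05 (bar lengths on the x axis) with all 12 pools and with each pool left out in turn (y axis). The bar of all 12 pools ends at 2663 genes, and the shortest bar, without male replicate 1 of the 0% diet, at 210.

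The yolk pathway separated the sexes most. All 6 measured vitellogenins were higher in females, with log2 differences from 4.24 to 5.43 and a median of 5.05. The level of vtg4 was 2.56, 2.67 and 2.56 in female pools and -2.81, -2.49 and -3.14 in male pools. The 3 female pools lay close together, and male replicate 2 was the least low of the males. This amounted to a log2 difference of 5.43 ± 0.25 (SE, n = 3 pools a sex, adjusted p = 3.88e-07), or 43.2-fold. Female levels of vtg2 were 2.36, 2.32 and 2.24 and male levels -2.55, -2.11 and -2.7. vtg3, a vitellogenin that lacks the phosphate-rich phosvitin domain, stood at 1.8, 1.73 and 2.29 in females and -2.25, -1.68 and -2.71 in males and had the smallest difference of the list, 4.24 ± 0.31 (adjusted p = 1.48e-05). Vitellogenin paralogs are close in sequence and their probes can share targets, so that the values of single members are uncertain. Across the 5 probes of vtg4 the log2 difference ran from 2.72 to 7.91.

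nots encodes nothepsin, an aspartic protease made in the liver of female fish. Its levels were 2.52, 2.32 and 2.53 in females and -2.51, -2.32 and -2.94 in males, a difference of 5.11 ± 0.22 (adjusted p = 3.88e-07), within the range of the vitellogenins. The estrogen receptor gene esr1 had levels of 1.4, 1.01 and 1.08 in females and -1.2, -1.01 and -1.17 in males and was 4.85-fold higher in females (2.28 ± 0.13 on the log2 scale, adjusted p = 1.58e-06). Its 3 probes all passed but differed in size, from 0.78 to 3.16. The beta receptors were not called. esr2a differed by -0.078 ± 0.13 (adjusted p = 0.657) and esr2b by 0.24 ± 0.28 (adjusted p = 0.517), and the pools of both genes overlapped. Of the 11 measured sex steroid receptors and estrogen-responsive genes, 3 were higher (nots, esr1 and vldlr) and 3 were lower, 27.3% each way against 23.4% and 16.5% of all genes. vldlr, a receptor of the lipoprotein receptor family that binds vitellogenin in oocytes, rose by 1.05 ± 0.32 (adjusted p = 0.0258, 1 of 2 probes past the threshold). The lower genes were shbg, the plasma carrier of sex steroids (-0.87 ± 0.18, adjusted p = 0.00432), nr0b1, an orphan nuclear receptor that represses transcription (-0.86 ± 0.16, adjusted p = 0.00241), and pgrmc1, a heme-binding membrane protein (-0.68 ± 0.11, adjusted p = 0.00117). pgrmc2, fkbp5 and nr0b2a differed by 0.57, 0.20 and -0.65 and did not pass.

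**Figure D3:**
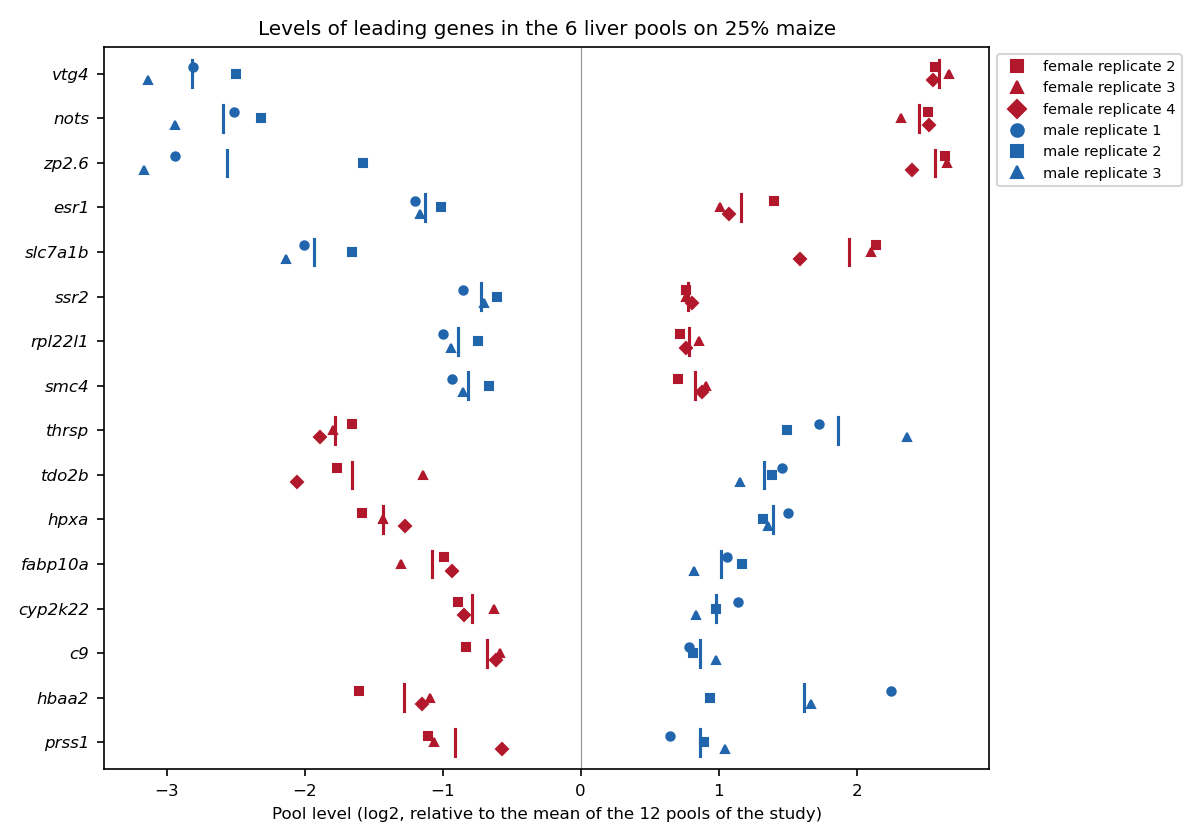
Log2 level of 16 genes (y axis) in each of the 3 female (red) and 3 male (blue) 25% maize pools (x axis, with 0 at the study's average), with the replicate given by the symbol and the group mean by a vertical bar. Female and male pools do not overlap for any of the 16 genes, which were picked from the called genes, and the widest gap is that of vtg4. Of all genes, 35.0% had all female pools above all male pools and 26.4% below.

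Of 68 genes of translocation and folding in the endoplasmic reticulum, 33 were higher in females (48.5% against 23.4% of all genes), none was lower and 35 did not pass, with a median of 0.56. Of the 68 differences 7 were below 0. The translocon-associated subunits led the list by p. ssr2 had levels of 0.76, 0.76 and 0.81 in females and -0.85, -0.60 and -0.70 in males, a difference of 1.46 ± 0.15 (adjusted p = 9.38e-05). ssr3 and ssr4 rose by 1.5 and 1.26, and sec61a1a, the pore of the translocon, by 1.17. prdx4, the peroxiredoxin of the endoplasmic reticulum, stood at 0.73, 0.85 and 0.91 in females and -0.78, -0.65 and -0.70 in males, with a difference of 1.53 ± 0.10 (adjusted p = 6.74e-06). The 3 female pools lay above the 3 male pools for each of these genes, as for 35.0% of all genes. They were named for their small p, so that this separation adds no further support.

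Of 80 cytosolic ribosomal protein genes, 66 were higher in females and none lower (82.5%), with a median of 0.83. The smallest p was that of rpl22l1, a paralog of a large subunit protein, at 0.72, 0.86 and 0.77 in females and -0.99, -0.74 and -0.94 in males (1.69 ± 0.14, adjusted p = 2.51e-05). rpl5b and rpl12 rose by 1.06 and 1.12. Of 86 ribosome biogenesis genes, 70 rose and none fell (81.4%), with a median of 0.72. Without female replicate 4 of 25% maize 8 of the 68, 8 of the 80 and 23 of the 86 genes passed, all higher. Their medians were 0.58, 0.70 and 0.72, and 361 of all genes passed in that fit. gar1, a protein of the box H/ACA particles that guide pseudouridylation, had levels of 0.47, 0.79 and 0.87 in females and -1.44, -1.2 and -1.51 in males, a difference of 2.02 ± 0.20 (adjusted p = 8.25e-05). utp15, rrp9 and bop1, factors of small and large subunit assembly, rose by 1.4, 1.73 and 1.17. Of 88 tRNA synthetases and translation factors, 50 rose (56.8%) and 1 fell, among them eef1g, a subunit of the elongation factor 1 complex (1.33 ± 0.13, adjusted p = 8e-05), and gars1, glycyl-tRNA synthetase (1.3 ± 0.16, adjusted p = 0.000262). The mitochondrial ribosome had 25 of 63 genes higher (39.7%) and none lower, led by mrpl54 at 1.04. Without female replicate 4 of 25% maize 9 of the 88 and 1 of the 63 genes passed, all higher (361 of all genes). Their medians were 0.48 and 0.40. Without male replicate 1 of the 0% diet 6 of the 88 and 0 of the 63 passed (210 of all genes). In the respiratory chain 7 of 90 genes were higher (7.78%) and 5 lower (5.56%), both below the shares of all genes, with a median of 0.07. cox17, the copper chaperone of cytochrome c oxidase, rose by 1.46 ± 0.19 (adjusted p = 0.00041), and atp5pf, a coupling subunit of ATP synthase, fell by 1.09 on the log2 scale (adjusted p = 0.000531). Of 48 proteasome subunits 8 rose (16.7%) and 2 fell (4.17%), which is also below them. psme3, the nuclear proteasome activator gamma, was the leading one at 1.33 (adjusted p = 0.000658).

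Zebrafish egg coat (zona pellucida) proteins are made in the ovary, which lies next to the liver. Of 35 measured egg coat and oocyte genes, 29 were higher in females and none lower (82.9%), with a median of 2.07. zp2.6 had levels of 2.64, 2.66 and 2.4 in females and -2.94, -1.58 and -3.16 in males, a difference of 5.19 ± 0.61 (adjusted p = 0.0002). Male replicate 2 stood well above the other male pools for this gene. zp2.5, zp2.3, zp3a.1 and zp3 also had male replicate 2 as the highest male, with differences between the sexes of 4.78, 3.88, 3.78 and 3.48. org, the oogenesis-related gene, had levels of 1.97, 2.45 and 2.04 and -2.19, -1.54 and -2.38, and tmsb5, a member of the actin-binding thymosin beta family, levels of 2.08, 2.57 and 1.86 and -2.58, -1.24 and -2.51, again with male replicate 2 the highest male. The mean level of the 35 genes was 0.96, 1.4 and 0.96 in the female pools and -1.32, -0.86 and -1.44 in the male pools, so that female replicate 3 was the highest and male replicate 2 the least low. The count depended on single pools. Without male replicate 2, 30 of the 35 genes were called higher, against 19 without male replicate 1, 14 without female replicate 4 and 13 without male replicate 3. Of all genes, 2761, 818, 361 and 409 passed in these fits, in that order. Leaving out replicate 1 of the 0% diet gave 13 (females, 278 of all genes) and 7 (males, 210 of all genes). The list median stayed between 1.83 and 2.21 in these fits. The study's pools are bulk tissue, in which fewer cells of a type and less RNA per cell cannot be told apart, and the part of ovarian material in the values of the other lists was not tested.

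Of 47 genes of the cell cycle and DNA replication, 35 rose in females and none fell (74.5%), with a median of 1.21. These calls fell with single pools left out, as did those over all genes. None of the 47 passed without female replicate 4 (median 1.03, 361 of all genes passed). The same held without female replicate 1 of the 0% diet (median 0.82, 278 of all genes). Without male replicate 3 it was 1 (median 1.4, 409 of all genes), and without male replicate 1 of the 0% diet 1 (median 1.27, 210 of all genes). Without male replicate 1, 10 passed (818 of all genes), and without female replicate 2, 18 (1274 of all genes). birc5b, a survivin of the chromosomal passenger complex, had levels of 1.57, 2.31 and 1.43 in females and -2.04, -1.16 and -1.91 in males, a difference of 3.42 ± 0.55 (adjusted p = 0.00119). For aurka, a mitotic spindle kinase, the levels were 1.34, 1.76 and 0.97 and -1.67, -1.09 and -1.24 and the difference 2.59 ± 0.40 (adjusted p = 0.000965). smc4 of condensin rose by 1.59 and rrm1, the large subunit of ribonucleotide reductase, by 1.98. The mean of the list ran in the pools as 0.53, 0.94 and 0.50 in females and -0.83, -0.51 and -0.60 in males, with female replicate 3 the highest and male replicate 2 the least low, the same 2 pools as for the egg coat and oocyte genes. The mean of the ribosome biogenesis genes, at 0.12, 0.28 and 0.26 in females and -0.57, -0.46 and -0.62 in males, and that of the vitellogenins, at 2.36, 2.36 and 2.28 and -2.63, -2.13 and -2.94, also had male replicate 2 as the highest male, while the female pools of the vitellogenins differed little. This trait was not particular to these lists. Male means were -0.48, -0.078 and -0.34 for the endoplasmic reticulum list, -0.35, -0.12 and -0.31 for the mitochondrial ribosome and -0.087, -0.031 and -0.054 for all genes. For the cytosolic ribosomal proteins, at -0.53, -0.39 and -0.37, male replicate 3 was the highest.

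Of 31 measured hepatocyte secreted protein genes, 25 fell and 1 rose (80.6% lower, against 16.5% of all genes), with a median of -1.3. Without female replicate 4, 19 were lower (361 of all genes passed in that fit), and with any single pool left out at least 14 were. fabp10a, the abundant liver fatty acid-binding protein of fish, which stays in the cell, had levels of -0.99, -1.3 and -0.93 in females and 1.06, 1.17 and 0.82 in males, a difference of -2.06 ± 0.18 (adjusted p = 3.63e-05). fga, the alpha chain of fibrinogen, and serpina1, the elastase inhibitor of plasma, fell by 1.73 and 1.57. For apobb.1, the apolipoprotein B of lipoprotein particles, levels were -0.55, -0.62 and -0.44 in females and 1.08, 0.97 and 1.08 in males (-1.57 ± 0.14, adjusted p = 4.6e-05). hpxa, a hemopexin that binds free heme, was among the 20 lowest genes of all, at -1.58, -1.43 and -1.27 in females and 1.5, 1.32 and 1.36 in males, a difference of -2.83 ± 0.19 (adjusted p = 6.82e-06). The iron carrier tfa fell by 1.39 with all 7 probes past the threshold, and cp, the copper-binding ferroxidase ceruloplasmin, fell by 0.86 with 2 of 3. The mean of the list lay between -0.54 and -0.42 in the female pools and between 0.56 and 0.61 in the male pools, with no overlap.

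Of 32 complement and coagulation genes 22 were lower and none higher (68.8%), with a median of -0.72. The count of lower genes was 9 without female replicate 4 and 3 without male replicate 3. In these fits 361 and 409 of all genes passed. c9, the pore-forming component of complement, stood at -0.83, -0.59 and -0.62 in females and 0.79, 0.81 and 0.98 in males (-1.54 ± 0.13, adjusted p = 2.71e-05). cfb, the protease of the alternative pathway, fell by 1.67, c3a.3, a complement C3 gene, by 1.3 and f5, coagulation factor V, by 1.15. cfhl4, a complement factor H-like gene, was among the 20 lowest genes at -2.17 ± 0.17 (adjusted p = 1.86e-05).

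Of 37 cytochrome P450 and other phase I enzymes of foreign compound metabolism, 21 fell, 1 rose and 15 did not pass (56.8% lower), and of 36 conjugating enzymes 16 fell, none rose and 20 did not pass (44.4% lower). Without female replicate 4 the counts of lower genes were 5 and 2, in a fit where 361 of all genes passed. cyp2k22, a P450 of the fish CYP2K family, had levels of -0.88, -0.63 and -0.85 in females and 1.14, 0.98 and 0.84 in males, a difference of -1.76 ± 0.19 (adjusted p = 0.000143), with 2 of 3 probes past the threshold. The carboxylesterases ces3 and ces2a fell by 1.31 and 1.46 and the alcohol dehydrogenase adh8a by 1.32. gstt1a, a theta class glutathione transferase, fell by 1.62 ± 0.15 (adjusted p = 6.27e-05) and ugt5b4, a glucuronosyltransferase, by 1.52 ± 0.23 (adjusted p = 0.000977). Among 24 genes of steroid and bile acid metabolism, 3 were higher (12.5%) and 5 lower (20.8%), against 23.4% and 16.5% of all genes. hsd17b12a, an enzyme of fatty acid elongation, was the leading higher one at 0.84, 1.13 and 0.51 in females and -1.77, -0.97 and -1.58 in males (2.28 ± 0.34, adjusted p = 0.000746). hsd11b2, which inactivates cortisol, fell by 1.52 and cyp8b1.1, the sterol 12-alpha-hydroxylase of bile acid synthesis, by 0.85. The direction of cyp8b1.1 turned, to 0.12, when arrays were scaled to 1 spread. hsd17b3, which makes testosterone and stood in the list of gonad genes, had levels of -0.97, -1.14 and -1.4 in females and 1.04, 0.85 and 0.86 in males, a difference of -2.01 ± 0.29 (adjusted p = 0.000625). Of the 6 measured genes of that list 2 fell (33.3%, against 16.5% of all genes), none rose and 4 did not pass. Among the latter, cyp17a1 differed the other way, by 0.82. The list mean was -0.27, -0.38 and -0.29 in females and 0.057, 0.063 and 0.59 in males, with male replicate 3 the highest. Neither of the 2 passed without female replicate 4, in a fit where 361 of all genes did.

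In the growth hormone and insulin-like growth factor axis 9 of 19 genes were lower in females and none higher (47.4%). It was 2 without female replicate 4, in a fit where 361 of all genes passed. igfbp2a, a binding protein that carries the growth factor in blood, stood at -0.82, -0.90 and -0.88 in females and 0.66, 0.97 and 0.63 in males, with all 3 probes past the threshold (-1.59 ± 0.12, adjusted p = 1.85e-05). The receptor gene ghra fell by 0.98 (adjusted p = 0.00859) and stat5a, a transcription factor that the receptor activates, by 1.00 (adjusted p = 0.00803). The binding protein gene igfbp5b fell by 1.02.

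**Figure D4:**
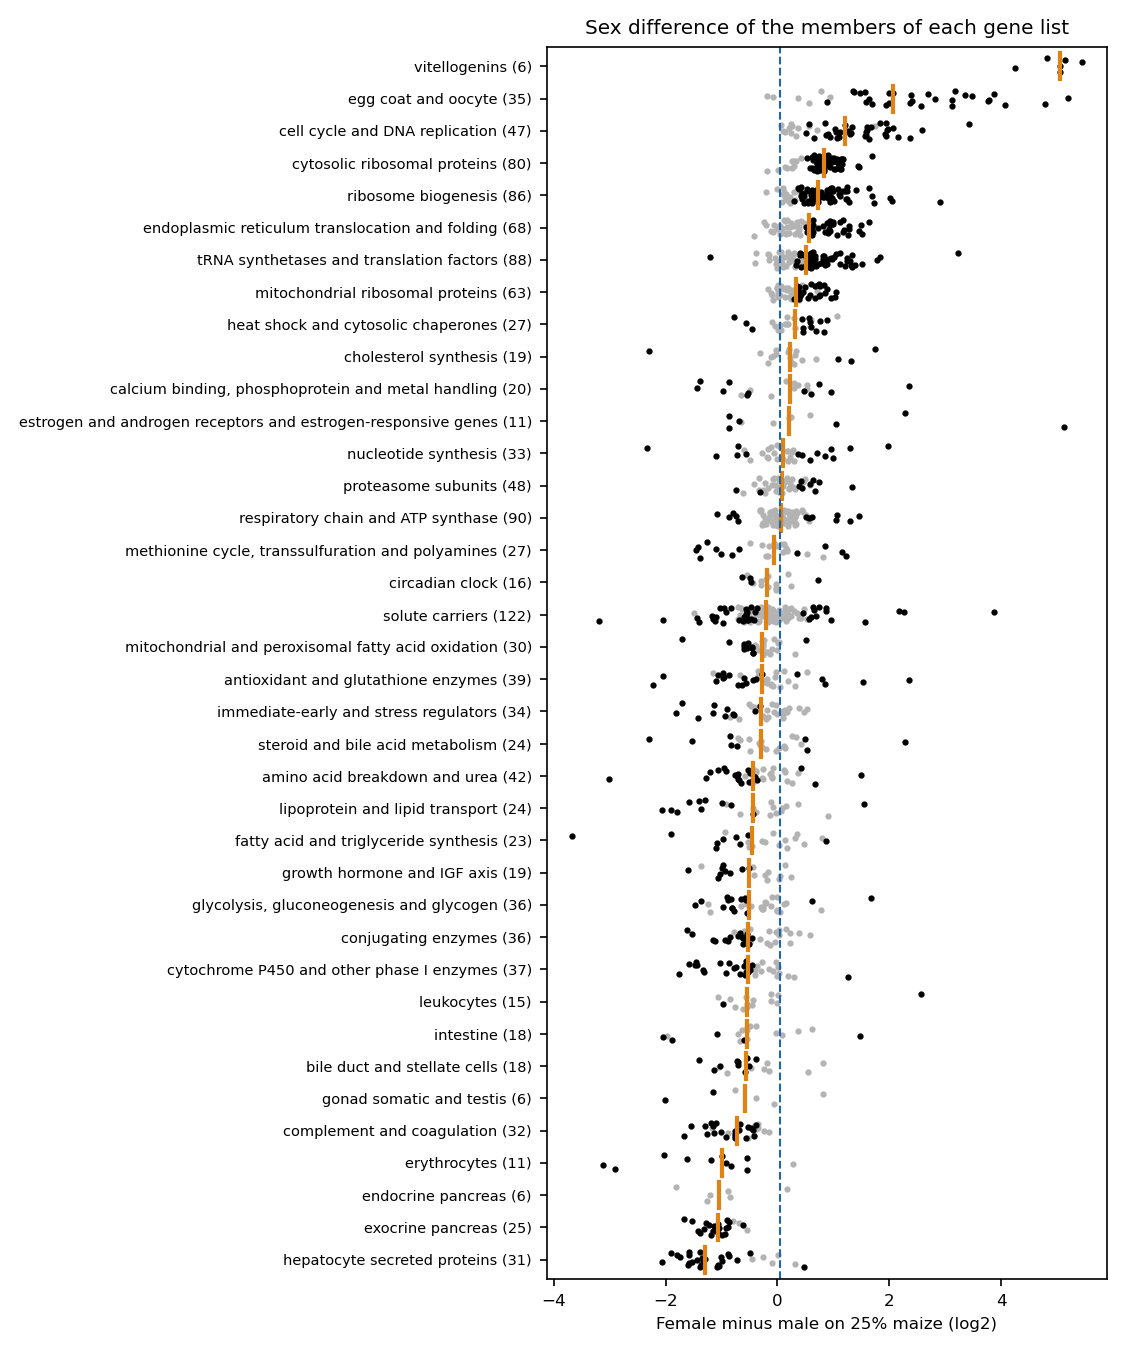
Female minus male log2 difference on 25% maize (x axis) of each member of 38 gene lists (y axis, with the number of measured members), in black where the adjusted p was below 0.05 and in grey otherwise, with the list median as an orange bar and the median of all genes, 0.05, as a dashed line. The vitellogenins, egg coat and oocyte genes and cell cycle genes have the highest medians and the hepatocyte secreted proteins the lowest.

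Among lipid genes the largest difference was that of thrsp, a gene linked to the control of lipid synthesis. Its level was -1.66, -1.79 and -1.89 in females and 1.73, 1.49 and 2.37 in males, a difference of -3.67 ± 0.20 (adjusted p = 1.05e-06), or 12.7-fold lower in females. This was the lowest value of all genes called. Of 23 fatty acid and triglyceride synthesis genes 8 fell (34.8%) and 1 rose. elovl6, an elongase of palmitate, dgat2, the last step of triglyceride synthesis, and me1, a source of NADPH, fell by 1.9, 1.07 and 1.1, the last with 1 of 2 probes past the threshold. Lipoprotein and lipid transport had 10 of 24 genes lower (41.7%) and 1 higher, with apoc1, an exchangeable apolipoprotein, at -1.8 and cetp, the cholesteryl ester transfer protein, at -1.4. Of 30 fatty acid oxidation genes 11 fell (36.7%) and 1 rose. Lower genes of the synthesis, transport and oxidation lists numbered 2, 8 and 1 without female replicate 4 (361 of all genes passed). No oxidation gene was called without male replicate 3 (409 of all genes passed). The differences of the 30 ran from -1.71 to 0.51, with a median of -0.27. cpt2, a carnitine palmitoyltransferase, was at -0.60 ± 0.14 (adjusted p = 0.00683) and pparaa, a nuclear receptor for fatty acids, at -0.86 ± 0.23 (adjusted p = 0.0136).

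Of 19 cholesterol synthesis genes 3 rose (15.8%) and 1 fell (5.26%), both below the shares of all genes. hmgcra, which encodes HMG-CoA reductase, the rate-limiting enzyme, had levels of 1.03, -0.25 and 0.37 in females and -1.65, -1.1 and -1.12 in males, a difference of 1.74 ± 0.37 (adjusted p = 0.00492). Female replicate 3 was the lowest female. That pool overlapped the males for msmo1 (1.11, -0.62 and 0.56 in females, -1.1, -0.38 and -0.76 in males, adjusted p = 0.0411) and for hmgcs1 (0.76, -0.41 and 0.39 in females, -1.27, -0.30 and -0.71 in males, adjusted p = 0.0434). stard4, a sterol transfer protein, was lower, at -1.4, -1.99 and -0.70 in females and 0.60, 2.36 and 0.36 in males (-2.3 ± 0.54, adjusted p = 0.00772), with male replicate 2 far above the other males.

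Of 36 genes of glycolysis, gluconeogenesis and glycogen 13 fell (36.1%) and 2 rose, and of 42 genes of amino acid breakdown and urea 19 fell (45.2%) and 3 rose. Lower genes numbered 1 and 3 without female replicate 4, in a fit where 361 of all genes passed. The gluconeogenic genes fbp1b and pck2 fell by 1.36 and 1.47, pgm1 of glycogen metabolism fell by 0.82, and tpi1a, a triosephosphate isomerase, rose by 1.66 (adjusted p = 0.00371). tdo2b, tryptophan dioxygenase, the first enzyme of the kynurenine pathway, had levels of -1.77, -1.14 and -2.06 in females and 1.46, 1.38 and 1.15 in males, a difference of -3.02 ± 0.27 (adjusted p = 4.55e-05) on 1 probe. hpda and hgd, enzymes of tyrosine breakdown, fell by 1.28 and 1.2. In the methionine cycle 4 of 27 genes rose (14.8%) and 8 fell (29.6%). mat2aa, a methionine adenosyltransferase of the form that extrahepatic tissues of mammals use, rose by 1.15 ± 0.13 with 1 of 2 probes past the threshold (adjusted p = 0.000174), while gnmt, the glycine methyltransferase of hepatocytes, fell by 1.46 ± 0.19 (adjusted p = 0.000304). Of 33 nucleotide metabolism genes 9 rose (27.3%) and 5 fell (15.2%), close to the 23.4% and 16.5% of all genes. Among the called members of smallest p, paics, of purine synthesis, and rrm1 differed by 0.96 (1 of 2 probes) and 1.98, and upp2, a uridine phosphorylase, and uox, urate oxidase, by -2.33 and -1.1.

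Of 122 solute carriers 14 rose (11.5%) and 28 fell (23.0%). Without female replicate 4, 5 were higher and 1 lower, in a fit where 361 of all genes passed. slc7a1b, a carrier of cationic amino acids, had levels of 2.14, 2.1 and 1.59 in females and -2.01, -1.66 and -2.13 in males, a difference of 3.88 ± 0.32 (adjusted p = 2.54e-05). slc43a1a, a carrier of large neutral amino acids, rose by 2.25 ± 0.18 (adjusted p = 2.3e-05). The mitochondrial carrier slc25a48 stood at -1.16, -0.79 and -1.91 in females and 1.89, 1.92 and 1.61 in males (-3.18 ± 0.32, adjusted p = 8.6e-05). mt2, a metallothionein, rose by 2.35 ± 0.51 with all 4 probes past the threshold (adjusted p = 0.00528). Of 39 antioxidant and glutathione genes 5 rose (12.8%) and 15 fell (38.5%), with gpx4a, a phospholipid glutathione peroxidase, at -2.05 ± 0.20 (adjusted p = 6.43e-05) and hmox1b, a heme oxygenase, at -2.23 ± 0.31 (adjusted p = 0.000486). Of 27 chaperones 10 rose (37.0%) and 3 fell (11.1%), among them cct3 and cct4 of the cytosolic chaperonin at 0.76 (1 of 2 probes) and 0.70 (2 of 3 probes). Of 34 immediate-early and stress regulators 11 fell (32.4%) and none rose. In the fit without female replicate 4 the antioxidant list had 1 higher and 5 lower genes. The stress regulators then had 4 lower genes, and no chaperone was called. fosab, a Fos transcription factor, had levels of -0.33, -0.24 and -0.57 in females and 1.68, 1.51 and 0.79 in males, a difference of -1.71 ± 0.22 (adjusted p = 0.000372). In the clock list 1 of 16 genes rose (6.25%), the transcription factor gene bmal1a (0.73, adjusted p = 0.0187), and 3 fell (18.8%), the cryptochrome genes cry3a and cry1a and the nuclear receptor gene nr1d2b (-0.47, -0.50 and -0.64), shares below and near those of all genes.

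Markers of other cell types and tissues differed between the pools too. Erythrocyte genes were lower in females for 10 of 11 and higher for none (90.9%). Lower genes numbered 2 without female replicate 4 (361 of all genes passed) and 1 without male replicate 3 (409 of all genes). hbba2, an adult beta globin, had levels of -1.31, -1.05 and -1.18 in females and 1.91, 1.04 and 1.68 in males, a difference of -2.9 ± 0.32 (adjusted p = 0.000143), and hbaa2, an adult alpha globin, differed by -3.13 ± 0.48 (adjusted p = 0.000913). Globin genes are close in sequence, so that their probes can share targets. The mean of the 11 genes was -0.65, -0.37 and -0.43 in females and 1.01, 0.38 and 0.76 in males, so male replicate 2 held the lowest value of the males.

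In zebrafish, pancreatic tissue lies closely against the liver. Exocrine pancreas genes, which encode digestive enzymes, were lower in females for 21 of 25 and higher for none (84.0%), with a median of -1.06. Levels of prss1, a trypsin, were -1.11, -1.06 and -0.57 in females and 0.65, 0.89 and 1.04 in males (-1.68 ± 0.37, adjusted p = 0.00555). The mean of the list was -0.73, -0.80 and -0.00071 in females and 0.53, 0.65 and 0.82 in males. Female replicate 4 lay apart from the other females and nearer to the males, and without it the median was -1.46 and 6 genes passed, in a fit where 361 of all genes did. None passed without female replicate 2 (median -0.71, 1274 of all genes passed) or without male replicate 3 (median -0.61, 409 of all genes). Without male replicate 1, 2 passed (818 of all genes). The 6 islet genes gave means of -0.86, -0.90 and 0.97 in females and 0.51, 0.58 and 1.45 in males, with female replicate 4 and male replicate 3 the highest, and none was called. Of 18 intestine genes 4 fell (22.2%) and 1 rose (5.56%), with list means of 0.26, -0.90 and -0.14 in females and -0.14, 0.22 and 0.88 in males that overlapped. The higher one was rbp2a, a retinol-binding protein, whose 3 probes did not agree, with log2 differences from -0.73 to 5.41, and their median gave -0.18 in place of the mean of 1.48. Of 15 leukocyte genes 1 rose (6.67%), 1 fell (6.67%) and 13 did not pass, both shares below those of all genes. The list median was -0.54, and 13 of the 15 differences were below 0. The higher gene was ctss2.1, a cathepsin S, at 2.57, and the lower one ctss2.2 at -0.98. Of 18 bile duct and stellate cell genes 10 fell (55.6%) and none rose, led by the smooth muscle genes acta2 and tagln at -1.4 and -1.13. None of the 18 passed without female replicate 4 (361 of all genes). Only 1 passed without male replicate 1 (818 of all genes) or without male replicate 3 (409 of all genes). The part of blood, pancreas and other tissue in the values of the metabolic and secreted protein lists was not tested.

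**Figure D5:**
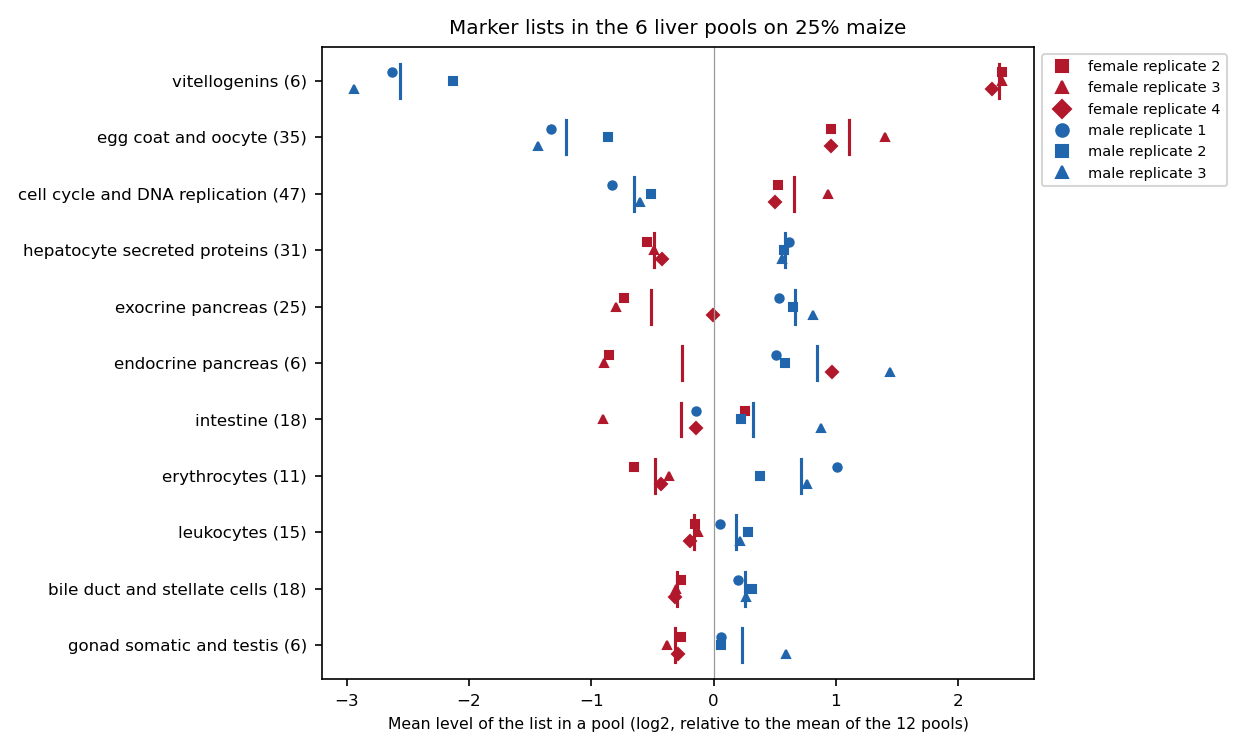
Mean log2 level of 11 gene lists (y axis, with the number of measured genes) in each of the 3 female (red) and 3 male (blue) 25% maize pools (x axis, with 0 at the study's average), with the replicate given by the symbol and the group mean by a vertical bar. The endocrine pancreas and intestine genes overlap and every other list separates by sex, the hepatocyte secreted proteins among them. Female replicate 4 stands apart for exocrine and endocrine pancreas.

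The sex difference was also solved for the 0% diet, to ask which genes differed between the sexes in a way that depended on diet. That contrast is one of maize against wheat. On 0% maize 3805 of 6684 genes (56.9%) passed, with the same median standard error of 0.161. Both estimates come from the same loop of arrays and the same linking arrays, so they are not independent. An error in a linking array enters the 2 estimates with opposite signs. Of the 2663 genes called on 25% maize 2287 were also called on 0% maize, which is 85.9% of the former list and 60.1% of the latter, and 376 were called on 25% maize alone. The test of the difference itself, sex by diet, found 0 of 6684 genes (0%) past an adjusted p of 0.05, with a median standard error of 0.256. At an unadjusted p below 0.05 there were 598 genes, and the smallest adjusted p was 0.107. With robust moderation the count was also 0 and with 12 solved pool levels taken as equal values it was 23. With arrays scaled to 1 spread, which by construction stretches the 2 arrays of a single sex, it was 1924. A block for replicate number gave 4 genes, and leaving out the female linking array gave 6. The count of 0 thus holds for the main fit and not for every other fit or scaling.

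The smallest p of that test belonged to cyp2k22, whose female minus male difference was -1.76 on 25% maize and -4.00 on 0% maize (adjusted p of the difference = 0.107). Sex differences of smaller size on 25% maize were seen for apobb.1 (-1.57 and -2.75, adjusted p = 0.195) and cyp8b1.1 (-0.85 and -2.01, adjusted p = 0.195, with the first value at 0.12 under scaling to 1 spread). esr1 had the larger value on 25% maize (2.28 and 1.3, adjusted p = 0.195). For stard4 the difference was -2.3 on 25% maize and 0.56 on 0% maize (adjusted p = 0.306), and for tdo2b -3.02 and -1.33 (adjusted p = 0.254). None of these passed in the main fit.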

How the data were processed

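Livers were analysed on 12 two-colour Agilent arrays. The authors processed the spot signals with limma, which the submitters' processing notes name without a version, and deposited a log ratio for each of 12275 probes on every array. The ratios the authors deposited are taken to be log2, limma's usual scale. How background was subtracted, how arrays were normalized and which probes were filtered out is not given in the sources used here, since the paper refers for these steps to a supplement and an earlier publication that were not used here. No scanner files were used here.

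Pools and dyes were taken from the labels. A linear model with terms for the 4 groups and for dye was fitted by limma 3.58.1 (R 4.3.3) to whitened ratios, with arrays that share a pool correlated (pool variance 2.91 times the array error, estimated over all probes). P-values were adjusted by Benjamini-Hochberg over all genes or probes, with a threshold of 0.05. The model had 8 residual degrees of freedom, and the number of arrays limits the precision. Pool levels were solved from the closed loop of arrays. The fit was run on data simulated from the same model, with 200 of 12275 probes changed. That checks the calculation and cannot show whether the model suits these data.

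The platform annotation gave 1 symbol for 10307 probes and none for 1968. Symbols were updated through RefSeq's gene table (GRCz12tu) by accession (9007 probes), by current symbol (976) or by synonym (317), with 7 left as the array has them. Probes of 1 gene were averaged. Of the 112 genes named as past the threshold, 10 had several probes of which not all passed singly. No coordinates or sequences are given, since the array names no build, and promoter motifs were not analysed here.

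Genes were named from the top 20 in each direction by log2 difference among those called with no overlap of pools, from up to 4 called members of smallest p in a list, from the vitellogenins and sex steroid receptors, and from marker genes. Not all that the rule admits are printed, and those of the last section were chosen after their values were seen. The members, the 38 lists and the tests were chosen with earlier results of these data known. Lists were described by counts and medians and not tested.

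A female and a male pool of 1 diet with 1 replicate number shared a tank per the methods. Their deviations from the group means correlated at -0.0673 and 0.00089 on 0% maize (replicates 1 and 3) and at -0.0106 and -0.331 on 25% maize (replicates 2 and 3), and a random tank term had a variance near 0. Alternatives changed the covariance, block, dye term, scaling, weights, probes, threshold and pools. Figures were drawn with matplotlib 3.10.9.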

Additional observations from a re-analysis of the deposited data

How the results depend on the processing

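Most of the 2663 calls on 25% maize rest on the 2 arrays that link the diets within a sex. Without the female linking array 522 genes, 1161 probes and, on 0% maize, 1745 genes passed, and without the male one 485, 1188 and 1553. With a single pool left out the counts ran from 210 to 3264 genes and from 597 to 5832 probes on 25% maize, from 1026 to 4297 genes on 0% maize and from 0 to 6 genes for the sex by diet difference. Only the shared tanks 2 and 3 gave 116 genes, 384 probes and, on 0% maize, 563 genes. The tank as a fixed block gave 1628 genes and 2774 probes, the replicate number as a block 1912 genes, and the tank as a random block left the count at 2663. Arrays taken as independent gave 1614 genes and 2881 probes. Scaling all arrays to 1 spread, which by construction stretches the 2 arrays of a single sex, gave 1685 genes and 3055 probes, kept the sign of 2600 of the 2663 calls and moved the sex by diet count from 0 to 1924. That count was 23 with 12 pool levels taken as equal values, 4 with a block for replicate number, and 6 without the female linking array. An adjusted p below 0.01 left 1267 genes and 2326 probes, and a log2 difference of at least 1 left 781 genes, 1706 probes and, on 0% maize, 1341 genes. Of 112 genes named as called, 30 stayed past the threshold under every alternative run on single genes, among them vtg2, vtg3, vtg4, nots, esr1, slc7a1b, prdx4, gar1, thrsp, tdo2b, hpxa and fabp10a. List counts moved with the overall count, from 1 to 72 of the 80 cytosolic ribosomal genes higher, 3 to 73 of the 86 ribosome biogenesis genes, 0 to 40 of the 47 cell cycle genes and 4 to 31 of the 35 egg coat and oocyte genes, and from 10 to 26 of the 31 hepatocyte secreted genes and 0 to 23 of the 25 exocrine pancreas genes lower, while all 6 vitellogenins passed in each. The medians of these lists kept their sign throughout (0.62 to 0.97, 0.65 to 0.76, 0.39 to 1.4, 1.33 to 2.25, -1.41 to -0.66, -1.46 to -0.35 and 4.29 to 5.46 in that order).

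Signs turned for few named genes. With arrays scaled to 1 spread cyp8b1.1 was at 0.12 and esr2a at 0.077, and with the median of probes rbp2a was at -0.18. esr2a was at 0.00036 with tanks 2 and 3 only, and fkbp5 at -0.23 with independent arrays and -0.34 without the male linking array. With a single pool left out esr2a ran from -0.15 to 0.0061, esr2b from -0.015 to 0.503 and fkbp5 from -0.67 to 0.77. The cause of these changes was not tested.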

Other observations

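Several gene families were counted after their values had been seen, without the members that the gene lists hold. Their counts are a description with no test of the family, and not all families counted are given. Of 12 measured small nuclear ribonucleoprotein genes (the snrp family of the spliceosome), 11 were higher in females on 25% maize and none lower. Their median log2 difference was 0.87, and 23.4% of all genes were called higher. Splicing factors of the srsf family differed less, with 5 of 14 higher, none lower and a median of 0.12. Of 8 genes of the RNA exosome (exosc), which trims and degrades RNA, 7 were higher, with a median of 0.60. Of 8 genes of the mitochondrial inner membrane translocase family (timm), 6 were higher, with a median of 0.70. Of 16 further subunits of the RNA polymerases (polr), 6 were higher and none lower, with a median of 0.32. Of 10 further keratins of epithelia 5 were lower in females and none higher, with a median of -0.74. Of 8 further annexins, calcium-dependent membrane-binding proteins, 5 were lower and 1 higher, against 16.5% of all genes called lower. Of 15 further heterogeneous nuclear ribonucleoprotein genes (hnrnp) 9 were higher and 1 lower, with a median of 0.56. Of 14 nucleoporins 6 were higher and none lower, and of 9 importins and karyopherins 5 were higher and none lower. Calls went both ways in the rab, vacuolar ATPase and claudin families. Of 36 rab genes 2 were higher and 5 lower, of 16 vacuolar ATPase genes 1 and 4, and of 14 claudins 1 and 4.

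Of the 2287 genes called on both diets, 12 had opposite signs, 7 of them higher in females on 25% maize and 5 lower. They were picked for these signs after the values were seen. None passed the sex by diet test, where their adjusted p ran from 0.123 to 0.264. tbk1, a kinase of innate immune signalling, had a female minus male difference of 0.56 on 25% maize (adjusted p = 0.0129) and -0.89 on 0% maize (adjusted p = 0.000628). usp5, a ubiquitin peptidase, had -0.77 (adjusted p = 0.0101) and 1.13 (adjusted p = 0.000691). The levels of usp5 on 25% maize were -0.52, -0.54 and -0.62 in females and 0.46, -0.036 and 0.062 in males. nenf, a secreted neurotrophic factor, had 1.25 (adjusted p = 0.00414) and -0.72 (adjusted p = 0.0318). Of the 12 genes 8 were measured on 1 probe.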
